A study of Homo sapiens with 4 samples.

Results

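The genes described here are 41 cyclins, cyclin-dependent kinases (CDKs), CDK inhibitors and the phosphatases and kinases that act on CDKs, chosen by name from the 58735 genes of the deposited count table. They were measured by RNA sequencing in MDA-MB-231 cells, a human line from triple-negative breast cancer, which here carried a doxycycline-switched H2B-eGFP transgene in all 4 groups, Bulk included. Doxycycline was given at 5 μg/ml for 3 days, Claret and Violet dyes were added, and the labels were left to dilute for 12 days. Claret, eGFP and Violet are the slow-cycling groups, each sorted as the 1% of cells brightest for that label, and Bulk was sorted with no gate on fluorescence. Each group is 1 library from 1 cell line, so no difference below has a replicate check, no p-value is given, and the intervals cover counting error only. Libraries are called by their titles, which match the column headings of the deposited count and FPKM tables. Values of the slow-cycling libraries follow the order Claret, eGFP, Violet throughout. The treatment field names another sort in each of the 4 samples: Claret for the library titled Bulk, eGFP for Claret, Violet for eGFP and un-gated for Violet.

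A cyclin binds a CDK and switches it on, and successive cyclin-CDK pairs drive the phases of the cell cycle. D-type cyclins with CDK4 and CDK6 act in G1 and phosphorylate the retinoblastoma protein, E- and A-type cyclins with CDK2 act at the start of and through S phase, and A- and B-type cyclins with CDK1 drive mitosis. INK4 and CIP/KIP proteins hold CDKs back, WEE1 and PKMYT1 add inhibitory phosphates to CDK1, and CDC25 phosphatases remove them. A further set of cyclins and CDKs acts mainly in transcription by RNA polymerase II, and gives a comparison within the same protein families. It is not wholly apart from the cell cycle, since CDK7 and CCNH, counted in this set, also activate other CDKs.

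Total reads were between 15508179 and 16976909 per library, and mitochondrial genes took 4.18% of the reads in Bulk and 5.06% to 5.48% in the slow-cycling libraries; the part of this difference in the results was not tested. Of the markers checked for the line, VIM, known to be high, had 12507 to 18488 reads, and of those known to be low or absent CDH1 had 0 to 3, ESR1 had 3 to 7 and PGR had 0 in all 4 libraries. ERBB2, also listed as low, was read clearly, with 1415 to 1542 reads. Markers of other cell types were at or near 0 (PTPRC, CD3E, CDH5 and ALB at 0 to 6 reads), apart from PECAM1 with 54 to 87. The proliferation genes MKI67, TOP2A and PCNA had log2 ratios to Bulk of -3.31 to -1.92 in the slow-cycling libraries. In libraries made from many cells, fewer cycling cells and less mRNA per cell cannot be told apart.

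The promoters of several mitotic members carry textbook cell-cycle elements, and their sequences are shown because these genes were lower together in all 3 slow-cycling libraries. RefSeq promoter windows (GRCh38.p14, 250 bases before to 50 after the start) were matched by symbol for 34 of the 41 genes, those not matched being CCND1, CCND2, CCNE2, CDK2, WEE1, PKMYT1 and CDKN1C. The elements CHR, CCAAT and E2F were searched on both strands, and no 2 matches overlapped: the cell-cycle genes homology region or CHR (TTTGAA), the CCAAT box (CCAAT), and 4 forms of the E2F site (TTTCCCGC, TTTCGCGC, TTTGCCGC and TTTGGCGC). The 140 bases before the start are printed 5′ to 3′ on the gene's strand, with matches in capitals, for lower members with a CHR or E2F match there and no other RefSeq start close upstream, and for CDKN1A, which was higher.
CCNB2, chr15:59105006-59105145, plus strand: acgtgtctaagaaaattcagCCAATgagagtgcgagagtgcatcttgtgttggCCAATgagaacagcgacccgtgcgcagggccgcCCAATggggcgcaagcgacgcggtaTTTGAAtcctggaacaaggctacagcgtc
CCNF, chr16:2429307-2429446, plus strand: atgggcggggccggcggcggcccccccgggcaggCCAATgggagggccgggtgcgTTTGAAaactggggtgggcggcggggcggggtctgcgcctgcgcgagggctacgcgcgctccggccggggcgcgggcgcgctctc
CKS1B, chr1:154974541-154974680, plus strand: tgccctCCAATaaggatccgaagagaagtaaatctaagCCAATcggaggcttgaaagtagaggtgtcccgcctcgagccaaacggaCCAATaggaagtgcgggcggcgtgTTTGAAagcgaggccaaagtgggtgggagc
CKS2, chr9:89311055-89311194, plus strand: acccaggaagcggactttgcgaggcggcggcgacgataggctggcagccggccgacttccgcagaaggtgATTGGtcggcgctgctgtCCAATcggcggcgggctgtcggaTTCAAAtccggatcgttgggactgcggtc
CDC25A, chr3:48188418-48188557, minus strand: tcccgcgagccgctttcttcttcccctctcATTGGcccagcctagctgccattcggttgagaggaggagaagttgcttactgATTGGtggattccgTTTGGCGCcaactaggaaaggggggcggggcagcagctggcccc
CDKN1A, chr6:36678574-36678713, plus strand: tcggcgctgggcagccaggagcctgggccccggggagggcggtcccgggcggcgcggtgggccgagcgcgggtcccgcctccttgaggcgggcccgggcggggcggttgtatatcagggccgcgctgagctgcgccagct

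CCNB2 has 3 CCAAT boxes, starting 120, 87 and 54 bases before the start, and a CHR 29 bases before it. CKS1B has the same order, with CCAAT at 134, 102 and 54 bases and CHR at 30. In CKS2 the CHR stands on the opposite strand, 29 bases before the start, where it reads TTCAAA. CCNF has a CHR at 85 bases, next to a CCAAT box at 106. CDC25A has an E2F match 44 bases before the start and no CHR in the bases shown, with 2 CCAAT boxes on the opposite strand. The CDKN1A window holds none of the 3 elements. Of the 13 members lower than Bulk by at least 2-fold in all 3 libraries and present among the promoters, 7 (53.8%) held a CHR in some window (CCNB2, CCNF, CDK1, CKS1B, CKS2, CDC25C and CDKN3), against 1 of the other 21 (4.76%, CCNC) and 18.2% of all 27305 genes with a window. The CCAAT box was in 12 of the 13 (92.3%), in 9 of the 21 (42.9%) and in 39.7% of all genes. The E2F forms were in 2 of the 13 (15.4%, CDK1 and CDC25A), in 0 of the 21 and in 3.99% of all genes. Over all 34 members, 8 (23.5%) held a CHR, 21 (61.8%) a CCAAT box and 2 (5.88%) an E2F form. By role, the CHR was in 5 of 6 G2/M members, 2 of 4 phosphatases and inhibitory kinases and 1 of 12 transcriptional members. It was in 0 of the members of the other role groups, so direction of change and role cannot be told apart here. The 27305 genes were not limited to those that passed the expression filter. These are matches of letters in short windows, counted after the direction of the genes was known, and a missing match says only that the letters are not in that window.

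Each slow-cycling library was set against Bulk to ask which parts of the cyclin-CDK system go with label retention. Of the 16 cyclins, kinases, CKS proteins and phosphatases of S phase and mitosis, 15 were at least 2-fold lower in all 3 libraries. CCNE1 was so in Violet only. D-type cyclins and their kinases lay lower by less than 2-fold, and inhibitors went both ways. Of the 12 transcriptional members, 11 lay within 2-fold of Bulk, as did most of all genes tested. Ratios are log2 ratios of read counts scaled to library size (CPM) with TMM factors, and a gene was called lower or higher when its ratio reached -1 or 1, a 2-fold difference. The 3 comparisons share the Bulk library. Of the 41 members, 40 passed the filter of a mean of at least 1 CPM, and CCND2 did not. In Claret 17 members were called lower and 2 higher, where 6.72% of all 14585 genes tested were called lower and 11.3% higher. eGFP also had 17 lower and 2 higher, with 7.64% and 12.0% of all genes. Violet had 18 lower and 1 higher, with 6.92% and 11.7% of all genes. The same 17 members were lower in all 3 libraries, a call that 4.93% of all genes received, and CDKN1C was higher in all 3, as were 8.67% of all genes. The median over the 40 members was -0.88, -0.75 and -0.66, and over all genes it was -0.01, -0.01 and 0.01. Of those called lower, 15 in Claret and 17 each in eGFP and Violet had their whole interval beyond 2-fold. Leaving out the 5 members that share 20% or more of their exonic bases or 31-base words with another gene (CCNK, CDK4, CCNE2, PKMYT1 and CCNH) left 15, 15 and 16 called lower.

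**Figure D1:**
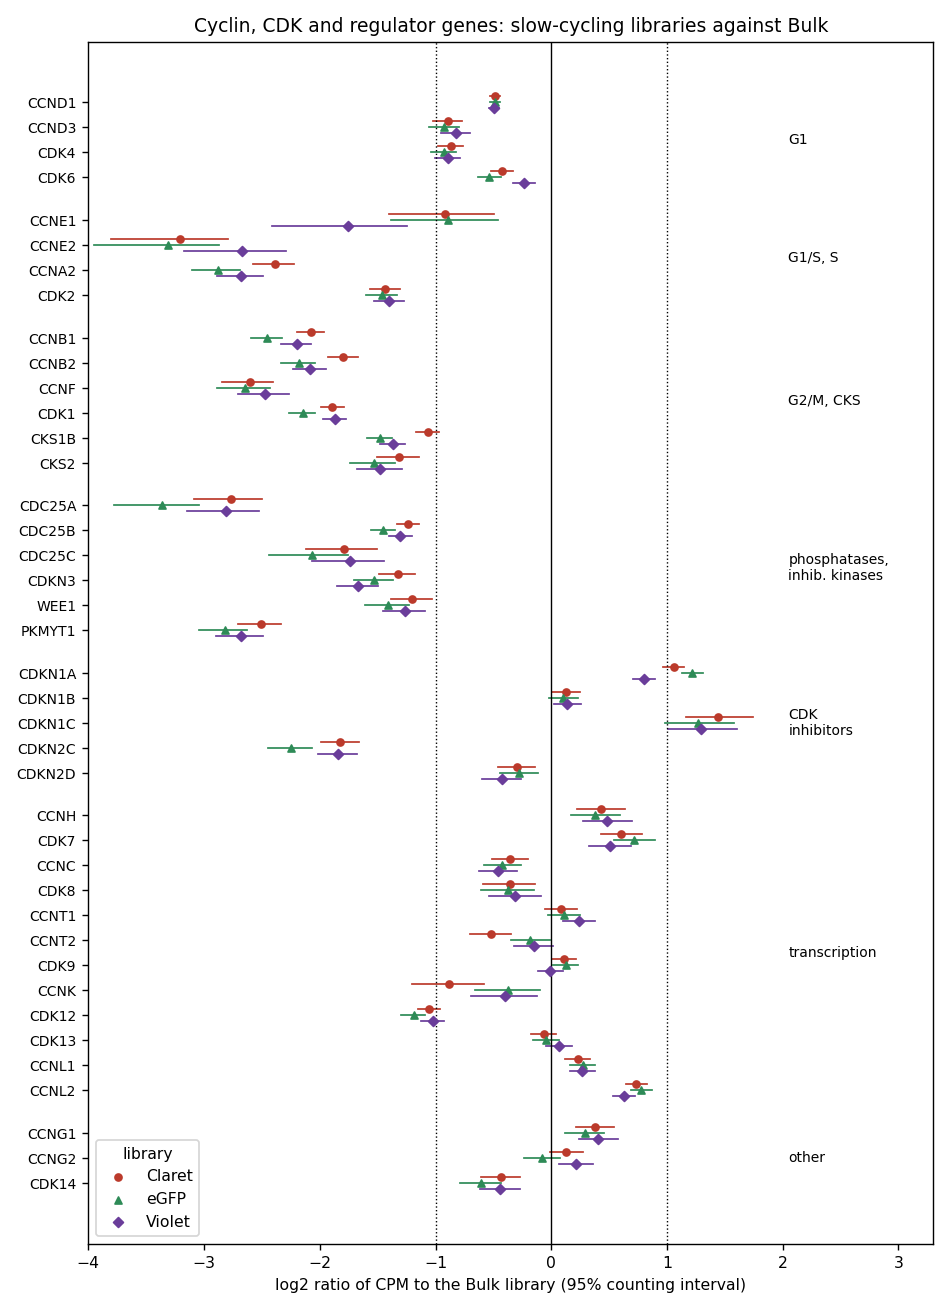
Log2 ratio of CPM to Bulk (x axis) for the 40 members that passed the filter (y axis, by role) in Claret (circles), eGFP (triangles) and Violet (diamonds), with 95% counting intervals as bars and dotted lines at -1 and 1. All members of the G2/M row block and of the phosphatase and inhibitory kinase block lie left of -1, those of the transcriptional block lie between -1 and 1 except CDK12, with CCNL2 and CDK7 farthest to the right, and CDKN1A and CDKN1C lie to the right.

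None of the 4 G1 members measured was called in any library, and all 4 lay below Bulk in each. CCND1 (ENSG00000110092, chromosome 11, 69641087 to 69654474), the D-type cyclin with the most reads here, had 9833 reads in Bulk, followed by 7565, 7098 and 6974. The 3 slow-cycling libraries were nearly equal, with log2 ratios of -0.49 (95% interval -0.53 to -0.44), -0.48 and -0.49. CCND3 had 1422 reads in Bulk, then 823, 754 and 802, with ratios of -0.90, -0.93 and -0.82. CCND2 had 0 reads in each library, which allows at most 0.193 CPM. CDK4 (chromosome 12, 57747727 to 57756013) had 1931 reads in Bulk against 1139, 1023 and 1036, ratios of -0.87, -0.93 and -0.90. TSPAN31 covers 43.2% of the exonic bases of CDK4 on the opposite strand and had ratios of 1.25, 1.15 and 1.04, and the use of strand in counting is not given in the sources used here. CDK6, the other kinase of D-type cyclins, was the closest of the 4 to Bulk in Claret and Violet, with 2004, 1606, 1393 and 1704 reads and ratios of -0.43, -0.54 and -0.23.

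Of the 4 genes of S-phase entry and S phase, CCNE2, CCNA2 and CDK2 were called lower in all 3 libraries and CCNE1 in Violet only. CCNE2, a partner of CDK2 at the start of S phase, dropped from 343 reads in Bulk to 38, 33 and 52. Its log2 ratios were -3.21 (-3.81 to -2.80), -3.31 (-3.95 to -2.87) and -2.68 (-3.17 to -2.30), that is 9.27-fold, 9.95-fold and 6.39-fold lower. INTS8 overlaps 37.1% of the exonic bases of CCNE2 on the opposite strand, together with a smaller gene, and INTS8 itself was at -0.15, -0.17 and -0.16. CCNE1, its close relative, differed by library, with 116 reads in Bulk against 65, 62 and 33. It was called lower in Violet, at -1.75 (-2.42 to -1.24), and its ratios in Claret (-0.92, -1.40 to -0.49) and eGFP (-0.90, -1.39 to -0.46) have intervals that include -1. CCNA2 (ENSG00000145386, chromosome 4, 121816444 to 121823933), the cyclin of S phase and early mitosis, fell from 1555 reads to 318, 211 and 241. Its ratios were -2.39 (-2.58 to -2.22), -2.88 (-3.11 to -2.69) and -2.68 (-2.89 to -2.49). CDK2, the kinase of both cyclins, fell by less, from 1699 reads to 675, 622 and 643, with ratios of -1.44, -1.46 and -1.40 that differ from each other by less than their counting error.

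All 6 members of the G2/M group fell in all 3 libraries. CCNB1 (ENSG00000134057, chromosome 5, 69167010 to 69178245), the main mitotic cyclin, dropped from 2844 reads in Bulk to 725, 521 and 617. Its ratios were -2.08 (-2.20 to -1.96), -2.46 (-2.60 to -2.33) and -2.20 (-2.33 to -2.08), or 4.22-fold, 5.49-fold and 4.59-fold lower. CCNB2 (chromosome 15, 59105078 to 59125045), whose promoter is shown above, had 2099 reads in Bulk against 649, 466 and 494, ratios of -1.80, -2.18 and -2.08. CDK1 (ENSG00000170312, chromosome 10, 60778331 to 60794852), the mitotic kinase, fell from 3648 reads to 1058, 828 and 995. Its ratios were -1.89 (-1.99 to -1.79), -2.15 (-2.26 to -2.04) and -1.87 (-1.98 to -1.77). CCNF, which forms a ubiquitin ligase rather than an active kinase, had the lowest ratios of the group, -2.61, -2.65 and -2.47, from 1152 reads in Bulk to 202, 184 and 206. The small CDK-binding proteins CKS1B and CKS2 fell least. CKS1B had 2535, 1301, 914 and 978 reads and ratios of -1.07 (-1.17 to -0.97), -1.48 and -1.37, and 18.7% of its 31-base words occur in other genes, mainly its own pseudogenes. CKS2 had 845, 364, 293 and 302 reads and ratios of -1.32, -1.53 and -1.48.

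**Figure D2:**
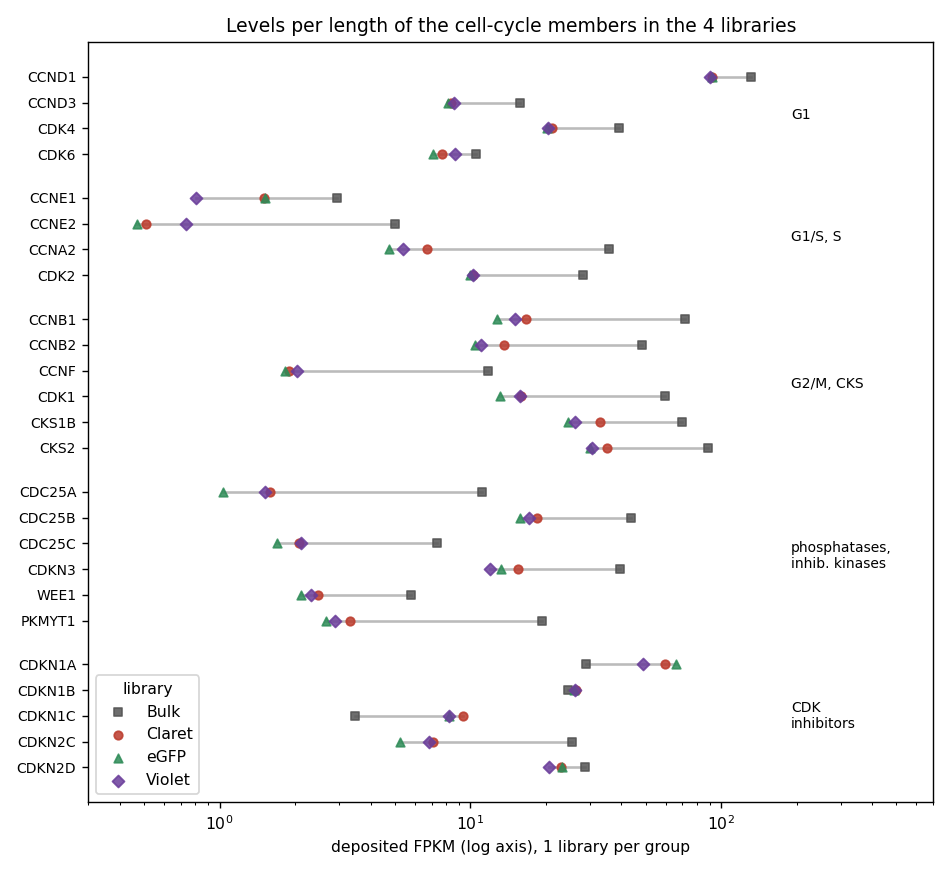
Deposited FPKM, a level per gene length (x axis, log scale), of the 25 cell-cycle members that passed the filter (y axis, by role) in the 4 libraries, 1 library per group, with a grey line from the lowest to the highest. CCND1 is the highest in each library (131.0 in Bulk, 89.9 to 92.3 in the others), the squares of Bulk lie to the right in the S, G2/M and phosphatase blocks, and they lie to the left for CDKN1A, CDKN1B and CDKN1C.

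The phosphatases and inhibitory kinases of CDKs fell together, 6 of 6 in each library, although they act in opposite directions on the same kinases. CDC25A (ENSG00000164045, chromosome 3, 48157146 to 48188402) activates CDK2 and CDK1, and its promoter holds the E2F match shown above, whose use was not tested. CDC25A fell from 712 reads in Bulk to 111, 68 and 100. Its ratios were -2.77 (-3.09 to -2.50), -3.36 (-3.78 to -3.04) and -2.81 (-3.15 to -2.53), and the 10.3-fold difference in eGFP was the largest among the members. CDC25C, with 381, 117, 90 and 113 reads, had ratios of -1.79, -2.07 and -1.74. CDC25B fell least of the 3, at -1.23, -1.45 and -1.30, from 2943 reads to 1347, 1083 and 1190. Per gene length CDC25B made up 70.4% of the summed CDC25 FPKM in Bulk and 83.4%, 85.2% and 82.6% in the slow-cycling libraries. PKMYT1, the membrane-bound inhibitory kinase of CDK1, had 1512, 284, 214 and 234 reads and ratios of -2.51, -2.82 and -2.68. Its exons overlap PAQR4 and KREMEN2 on the opposite strand over 31.6% of their bases. PAQR4 was at -1.13, -1.10 and -1.32 and KREMEN2 at 1.40, 1.18 and 0.86. WEE1, the nuclear inhibitory kinase, had 829, 386, 313 and 343 reads and smaller ratios of -1.21, -1.41 and -1.27. CDKN3, a phosphatase that removes the activating phosphate from CDKs, had 1123, 481, 390 and 352 reads and ratios of -1.33, -1.53 and -1.67.

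The 5 CDK inhibitors differed among themselves: 1 was lower in all 3 libraries, 1 was higher in all 3, 1 was higher in Claret and eGFP, and 2 were not called. CDKN1A, the CIP/KIP inhibitor p21, had 1375 reads in Bulk, then 3085, 3233 and 2395, the largest number of reads among the inhibitors in each library. Its log2 ratio was 1.06 (0.97 to 1.15) in Claret and 1.22 (1.13 to 1.31) in eGFP, and 0.80 (0.71 to 0.90) in Violet, whose interval ends below 1. With ratios corrected for GC content the Claret value was 0.98 and no longer called. CDKN1C, the CIP/KIP inhibitor p57, was read much less, with 133 reads in Bulk against 392, 326 and 328, and had ratios of 1.44 (1.16 to 1.75), 1.27 (0.99 to 1.58) and 1.29 (1.01 to 1.61). CDKN1B, the third CIP/KIP inhibitor p27, was almost level, with 1067, 1257, 1158 and 1175 reads and ratios of 0.13, 0.11 and 0.14. CDKN2C, an INK4 inhibitor of CDK4 and CDK6, fell with the S-phase and mitotic genes, from 1314 reads to 399, 277 and 365, with ratios of -1.82, -2.25 and -1.84. CDKN2D, the other INK4 gene read here, had 669, 586, 557 and 497 reads and ratios of -0.30, -0.28 and -0.43. CDKN2A and CDKN2B, at a locus known to be deleted in this line, had 0 reads in each library.

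The make-up of the pool, taken per gene length, differed between Bulk and the slow-cycling libraries. These values are sums of the deposited FPKM, which compare genes per length, describe mRNA and carry no error estimate. D-type cyclins made up 47.3% of the summed FPKM of cyclins D, E, A and B in Bulk and 72.0%, 77.0% and 75.0% in the slow-cycling libraries. The share of B-type cyclins was 38.6% in Bulk and 21.7%, 17.8% and 19.8% in the others, and that of E- and A-type cyclins was 14.1% and then 6.23%, 5.16% and 5.25%. CCND1 alone was 89.3% of the D-type sum in Bulk and 91.3% to 91.9% elsewhere. Among the 4 cell-cycle kinases, CDK4 and CDK6 together held 36.2% in Bulk and 52.6%, 54.1% and 52.7% in the slow-cycling libraries. The 3 CIP/KIP genes summed to 56.9 FPKM in Bulk and to 95.3, 100.3 and 83.2 in the others. Their ratio to the sum of CDK1, CDK2, CDK4 and CDK6 was 0.414 in Bulk and 1.73, 1.99 and 1.51 in the others. CDKN1A held 26.1% of the FPKM of all 7 INK4 and CIP/KIP genes in Bulk and 47.6%, 51.5% and 44.2% in the slow-cycling libraries, while CDKN2C went from 47.1% to 23.6%, 18.4% and 25.0% of the INK4 sum.

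**Figure D3:**
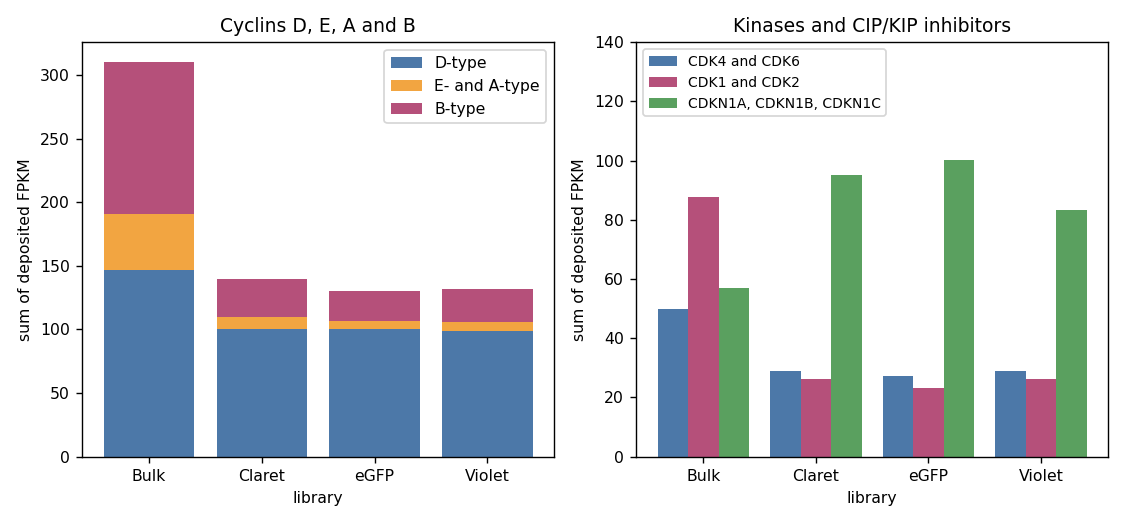
Sums of deposited FPKM (y axes, from 0) in the 4 libraries (x axes), 1 library per group and no error bars: cyclins D, E, A and B stacked on the left, and kinases and CIP/KIP inhibitors side by side on the right. The cyclin stack is 310.2 in Bulk and 130.0 to 139.7 in the others, mostly D-type there, and the CIP/KIP bar is above both kinase bars in the 3 slow-cycling libraries and between them in Bulk.

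The transcriptional members were called in 1 case of 12, lower in all 3 libraries. Over all genes tested, 4.93% were called lower in all 3 and 8.67% higher in all 3. CDK12 (ENSG00000167258, chromosome 17, 39461511 to 39564907), which with cyclin K phosphorylates RNA polymerase II during elongation, dropped from 2522 reads in Bulk to 1307, 1114 and 1239. Its ratios were -1.06 (-1.15 to -0.96), -1.19 (-1.29 to -1.09) and -1.02 (-1.12 to -0.93), close to the threshold. With a filter at 10 CPM it was at -0.99 in Claret and -0.95 in Violet, not called, and in Violet it was also at -0.98 without a scaling factor. CDK13, the close relative of CDK12, had 1344, 1383, 1315 and 1407 reads and ratios of -0.07, -0.04 and 0.07, with intervals that include 0. CCNK, the cyclin of both, had 241, 140, 187 and 182 reads and ratios of -0.88, -0.38 and -0.40. Its count is uncertain, since 59.5% of its exonic bases lie under CCDC85C on the opposite strand, which was at -0.46, -0.40 and -0.40.

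The other transcriptional pairs lay within 2-fold of Bulk. CDK7 and CCNH, which activate other CDKs and belong to the general factor TFIIH, lay above Bulk: CDK7 at 0.61, 0.71 and 0.50 (415 reads in Bulk against 682, 688 and 589), and CCNH at 0.43, 0.38 and 0.48. RASA1 overlaps 22.3% of the exonic bases of CCNH on the opposite strand and was at 0.31, 0.33 and 0.41, with 1302 to 1742 reads against 325 to 472 for CCNH. CDK8 and CCNC, the kinase pair of the Mediator complex, lay below Bulk, at -0.36, -0.38 and -0.31 and at -0.36, -0.42 and -0.46. CDK9, the elongation kinase, was at 0.11, 0.12 and -0.01. Its cyclins were CCNT1 at 0.08, 0.11 and 0.24, and CCNT2 at -0.52, -0.18 and -0.15. CCNL2, a cyclin of splicing-linked kinases, had 1562, 2803, 2704 and 2411 reads and the highest ratios of the group, 0.73 (0.65 to 0.83), 0.78 and 0.63, and its relative CCNL1 was at 0.23, 0.27 and 0.27. The group's median was 0.01, 0.03 and 0.03. The summed FPKM of CDK7, CDK8, CDK9, CDK12 and CDK13 was 63.6 in Bulk and 62.7, 63.4 and 58.5 in the others.

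None of the 3 remaining members was called. CCNG1, a cyclin known as a target of p53, had 521, 731, 642 and 690 reads and ratios of 0.38, 0.29 and 0.41. CCNG2, a cyclin known from arrested cells, was at 0.13, -0.08 and 0.22, with 713 reads in Bulk and 680 to 842 in the others. CDK14, a kinase tied to Wnt signalling, had 654, 520, 432 and 480 reads and ratios of -0.44, -0.61 and -0.44.

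Of 61 further genes of the pathway, 56 passed the filter, and in each slow-cycling library 19 were called lower and 1 higher. These were the same 19 and the same 1 in all 3, where 4.93% of all genes tested were lower and 8.67% higher in all 3. By list, those called lower were 9 of 19 genes of the retinoblastoma, E2F and DREAM group, 4 of 9 degradation genes and 6 of 9 checkpoint and mitotic kinases. Of the 7 other cyclins and 12 other CDK-family genes that passed the filter, 0 were called lower. Genes lower by less than 2-fold are not in these counts. The 5 lowest by the smallest of the 3 differences were E2F8, MYBL2, FOXM1, CDC20 and E2F2. MYBL2 and FOXM1, transcription factors of mitotic genes, had ratios of -3.25, -3.90 and -3.34 and of -2.97, -3.32 and -2.93. E2F8, a repressor among the E2F factors, was at -3.50, -3.49 and -3.75, and CDC20, which directs the anaphase ligase, was at -2.73, -2.86 and -2.86. E2F2, an activator, was at -2.48, -3.67 (-4.62 to -3.10) and -2.73, from 237 reads in Bulk to 44, 17 and 34. RBL2, the pocket protein p130, was the 1 called higher, with 542 reads in Bulk against 1299, 1251 and 1290, ratios of 1.15 (1.01 to 1.30), 1.19 and 1.25.

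The slow-cycling libraries were then compared with each other, without Bulk, to ask whether the label used for sorting goes with a difference in these genes. No member differed by 2-fold in any of the 3 pairs, where 1.06% to 1.29% of all genes did. The intervals show smaller differences. Claret was above eGFP with an interval above 0 in 13 members and below it in 3, where 12.7% of all genes had an interval above 0 and 11.8% below. Claret was above Violet in 8 and below in 5 (14.3% and 13.7% of all genes), and eGFP was above Violet in 5 and below in 10 (14.2% and 14.0%). Such intervals allow for counting error only and are not adjusted for the number of genes.

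eGFP had the lowest level of the 3 libraries in 14 of the 16 genes of the S, G2/M and phosphatase groups, the exceptions being CCNE1 and CDKN3, and Claret had the highest in 10; over all genes tested, eGFP was lowest in 33.1% and Claret highest in 32.8%. Many of these differences are within counting error: of the 16, 9 had an interval above 0 for Claret against eGFP and 5 had one below 0 for eGFP against Violet. For Claret against eGFP the log2 ratio of CCNA2 was 0.49 (0.24 to 0.75), of CKS1B 0.41 (0.29 to 0.54), of CCNB1 0.38 (0.22 to 0.55), of CCNB2 0.38 (0.21 to 0.56) and of CDK1 0.26 (0.13 to 0.39). The median of the 16 was 0.24 for Claret against eGFP and -0.15 for eGFP against Violet. CDKN1A ran the other way, at -0.16 (-0.23 to -0.09) for Claret against eGFP and 0.42 (0.34 to 0.50) for eGFP against Violet. CDKN2C followed the S-phase and mitotic genes, at 0.43 (0.21 to 0.66) and -0.41 (-0.64 to -0.18). The 2 E-type cyclins differed in order: CCNE1 was lowest in Violet, at 0.86 (0.26 to 1.55) for eGFP against Violet, and CCNE2 was at -0.64 (-1.35 to -0.01) for the same pair, and at -0.54 (-1.20 to 0.07), an interval that includes 0, for Claret against Violet. Per gene length CCNE2 had 1.71 times the FPKM of CCNE1 in Bulk and 0.339, 0.309 and 0.914 times in the others. These 3 values carry no interval and rest on 38, 33 and 52 reads of CCNE2 and 65, 62 and 33 of CCNE1. The level of CCNE2 is also uncertain, since 37.1% of its exonic bases overlap other genes on the opposite strand. CDK6 was highest in Violet, at -0.19 (-0.29 to -0.10) for Claret and -0.30 (-0.41 to -0.20) for eGFP against it. CCNK and CCNT2 were lowest in Claret, at -0.51 and -0.34 against eGFP and -0.48 and -0.37 against Violet, and CCND1, CDK2 and CDKN1B differed in none of the pairs beyond counting error.

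**Figure D4:**
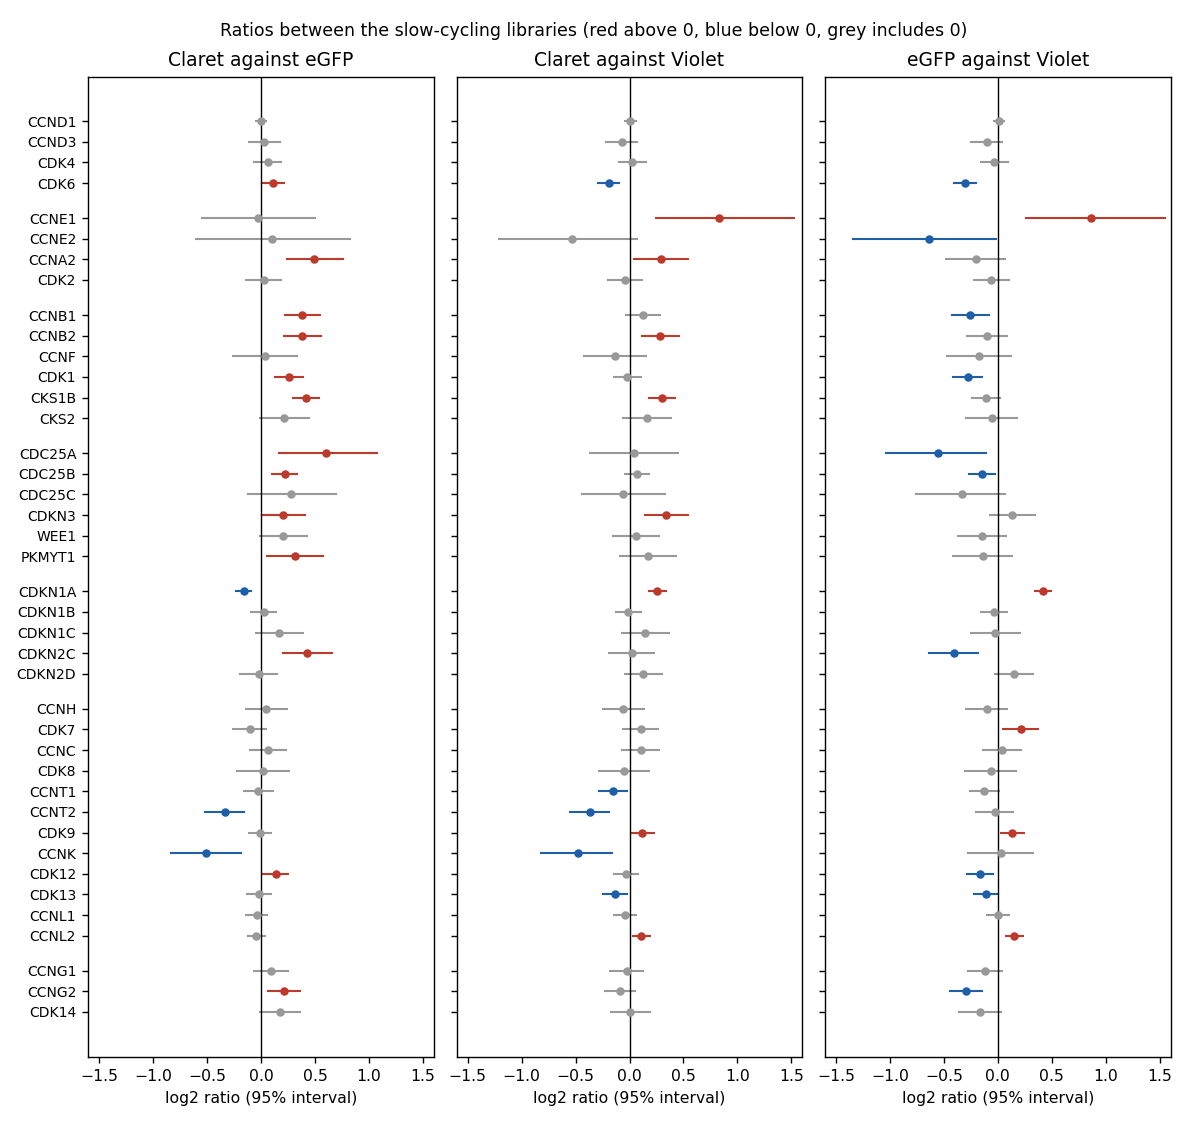
Log2 ratios with 95% counting intervals (x axes) for Claret against eGFP, Claret against Violet and eGFP against Violet (panels), for the 40 members that passed the filter (y axis, by role). Red intervals lie above 0 (13, 8 and 5 members), blue ones below 0 (3, 5 and 10), and grey ones include 0.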

How the data were processed

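RNA from 4 sorted samples of MDA-MB-231 was sequenced. Per the submitters' processing notes the tools were HISAT2 2.0.5 and featureCounts 1.5.0-p3; strand setting and treatment of reads matching several genes are not given in the sources used here. The deposited count table holds whole-number read counts per gene, and the authors' FPKM table gives levels per gene length. Its scaling for depth is not by total reads alone. The median log2 ratio of Violet to Bulk over all genes kept was 0.053 by total reads and -0.028 on log2(FPKM + 1). Gene starts and ends equal those of GENCODE 29 (GRCh38) for all 58735 genes.

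Counts were scaled by TMM (edgeR 4.0.16, R 4.3.3), genes with a mean of at least 1 CPM were kept (14585), and log2 ratios used a prior count of 2. With 1 library per group, edgeR's quasi-likelihood test could not be fitted, so a gene was called by size, and 95% exact (Clopper-Pearson) intervals of the read ratio were computed in SciPy 1.17.1. A count of 0 allows up to 3 reads. The procedure was tested on simulated data with counting error only, the error that the intervals assume. That test cannot address variation between replicates. The alternatives were other scalings (including DESeq2 1.42.0), filters, prior count, log2(FPKM + 1), GC correction, stricter intervals and the treatment field, and, chosen after seeing the data, leaving out members that share sequence. All 41 members are named; of the further pathway genes, those called alike in all 3 libraries with the 5 largest smallest-of-3 ratios in each direction, and CDKN2A and CDKN2B. Motifs, and genes named beside overlaps, were chosen after values were seen. Members and lists were chosen with earlier results of these data known.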

Additional observations from a re-analysis of the deposited data

How the results depend on the processing

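No paired analysis was possible because each group has 1 library. With other scalings, filters, prior count, log2(FPKM + 1), GC correction, the whole interval beyond 2-fold or without members that share sequence, members called lower numbered 15 to 17 for the titles Claret and eGFP and 15 to 18 for Violet. The filter at 10 CPM removed CCNE1 and CCNE2. Under the scalings, filters, prior count, log2(FPKM + 1) and GC correction no called member kept by the filter changed sign, and 7 calls of single members were lost, those of CDK12 (5), WEE1 in Claret (-0.97 on log2(FPKM + 1)) and CDKN1A in Claret. With the whole interval beyond 2-fold, CKS1B, CDK12 and CDKN1A in Claret, CDKN1C in eGFP and CDK12 in Violet were not called. Members called higher in Claret were 1 under the GC correction and 1 with the whole interval beyond 2-fold, which also left 1 in eGFP. On log2(FPKM + 1), which understates changes of low genes, no pathway gene was called higher in Claret (0), and medians shrank to -1.37 in Claret and -1.57 in eGFP for the phosphatases and inhibitory kinases and to -1.72 in eGFP and -1.58 in Violet for the G1/S and S group. With 99% intervals, 3 members lay below 0 in the pair Claret and Violet, while in the pair eGFP and Violet 6 lay below and 3 above, since a wider interval excludes 0 less often.

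Grouping by the treatment field, which the deposited column headings do not follow, exchanges the libraries, and the counts and medians then differ. MKI67, TOP2A and PCNA were highest in the library titled Bulk, which that field names Claret. By that field 1, 0 and 0 members were called lower and 18, 0 and 0 higher, in the order Claret, eGFP, Violet. Medians in Claret were then 0.66 for the G1 group, 2.21 for G1/S and S, 1.98 for G2/M, 1.70 for phosphatases and inhibitory kinases, -0.14 for CDK inhibitors and -0.22 for other cyclins and kinases. In eGFP they were -0.032 for G1, 0.12 for G1/S and S, 0.14 for G2/M and 0.065 for phosphatases and inhibitory kinases. In Violet they were -0.067, -0.13, -0.14 and -0.15 for the same groups, and -0.16 for other cyclins and kinases. Depth limits the genes read least: CCNE1 in Violet rests on 33 reads and CCNE2 in eGFP on 33. Of the further pathway genes named, E2F2 in eGFP rests on 17.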
